A study of Micropterus salmoides with 6 samples.

Results

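Genes of lipid droplet coating, triglyceride synthesis and lipolysis were followed in whole bodies of largemouth bass larvae (Micropterus salmoides, a farmed freshwater fish). Of 10 such genes listed by symbol, 7 had a row in the deposited table of 27166 genes: plin2, plin3, cidec, dgat1a, dgat2, pnpla2 and g0s2. The other 3, plin1, hilpda and bscl2, were not analysed here. All 7 passed the filter on low counts, in a table where 20627 genes did. They were chosen by their function with the fold changes of SP_L over SP_H in these same 6 libraries already known, so those differences are given as a description and no significance is claimed for them.

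The study set SP_L against SP_H. SP_L libraries came from larvae with visible skeletal deformity that had been fed a diet with 0% added phospholipid, and SP_H libraries from normal larvae fed a diet with 8%. Feeding lasted 12 days in both. There were 3 libraries per group, and 30 larvae of a tank were pooled for each. Strain, genotype and age at the start were not given in the sources used here. Deformed larvae were chosen for one group and normal ones for the other, so diet and deformity cannot be told apart in any value below.

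A lipid droplet is a store of neutral lipid, mainly triglyceride and sterol ester, wrapped in a single layer of phospholipid that carries coat proteins. In vertebrates, acyl-CoA:diacylglycerol acyltransferases make triglyceride at the endoplasmic reticulum, and perilipins cover the droplet and limit access of lipases. Adipose triglyceride lipase, the product of pnpla2, takes the first fatty acid off triglyceride, and the small protein G0S2 is known from mammals as its inhibitor. Droplets are abundant in adipose tissue, and liver, muscle and the absorptive cells of the gut form them too.

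The libraries held between 14958887 and 16922264 counts. Levels between groups are given as CPM (counts relative to library size, corrected by edgeR's TMM factors), and levels between genes as the deposited FPKM, which is also divided by gene length. In FPKM the order of the 7 genes over all libraries was plin2, plin3, dgat2, dgat1a, g0s2, pnpla2 and cidec. Of the 25487 genes with an FPKM above 0 in at least 1 library, 78.6% had a lower mean than plin2, and 24.4% had a lower mean than cidec. In SP_L the FPKM of plin2 was 12.3 ± 1.84, above that of every other member, and plin3 was next at 5.86 ± 0.187 (SD, n = 3). In SP_H the FPKM of plin2 was 7.01 ± 1.32 and that of plin3 was 5.27 ± 1.30; plin2 was the higher of the pair in each SP_H library, with ratios between 1.14 and 1.65. The levels of dgat2, dgat1a and g0s2 were indistinguishable in SP_L, at 3.03 ± 0.487, 2.99 ± 1.09 and 2.95 ± 0.343 FPKM. In SP_H, dgat2 and dgat1a had 3.64 ± 1.29 and 2.57 ± 0.776 FPKM, and g0s2 stood below both at 1.17 ± 0.0754. The lipase gene pnpla2 and cidec were the 2 lowest in both groups, at 0.446 ± 0.279 and 0.512 ± 0.162 FPKM in SP_L and 0.630 ± 0.0904 and 0.438 ± 0.347 FPKM in SP_H, and did not differ from each other beyond that spread.

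**Figure D1:**
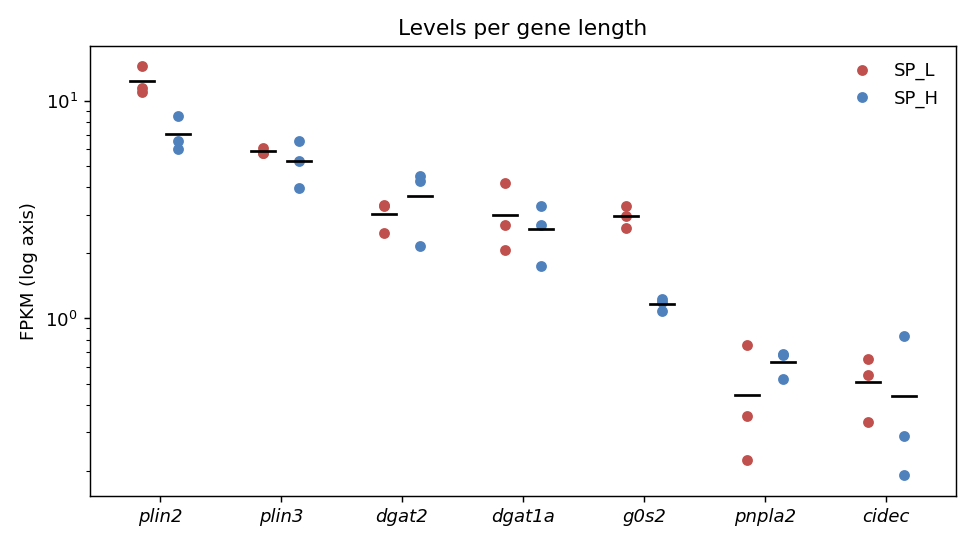
Deposited FPKM of the 7 genes on a log axis, with each library as a point, SP_L left and SP_H right of each pair, and a line at the mean of 3 libraries. Members span a range from plin2, at 12.3 FPKM in SP_L and 7.01 in SP_H, down to pnpla2 and cidec, both below 1 FPKM in every library.

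Between the groups, 2 of the 7 genes stood apart without overlap, the coat gene plin2 and the lipase inhibitor gene g0s2, both higher in SP_L. In whole bodies, a change in the number of cells of a type and a change in RNA per cell cannot be told apart. The remaining 5, plin3, cidec, dgat1a, dgat2 and pnpla2, overlapped. Of all tested genes, 9.64% had every SP_L library above every SP_H library, and 19.1% had groups without overlap in either direction. The quasi-likelihood test of edgeR, with p-values adjusted over all genes, called 0 of the 7 (0.0679% of tested genes were called), with 2 at an unadjusted p under 0.05 (12.7% of tested genes). DESeq2 called the same 2, plin2 and g0s2 (2.22% of its tested genes were called). Because the genes were listed with this contrast known, nothing is read from these counts.

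Of the perilipins, plin2 encodes the coat protein found on droplets of most tissues, and the level of this protein marks stored lipid in many cell types. These data hold RNA only, with no measure of protein or stored lipid. The RNA level of plin2 was 28.9, 22.1 and 21.9 CPM in SP_L, against 15.3, 11 and 11.6 CPM in SP_H. The lowest SP_L library was thus above the highest SP_H library, SP_H replicate 1. The edgeR log2 fold change was 0.94 ± 0.16 (SE), a fold of 1.92. It stayed between 0.79 and 1.10 when any 1 library was left out.

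The other perilipin, plin3, encodes a coat protein that in mammals moves from the cytosol to small, newly formed droplets. It had 13.3, 12.5 and 12.0 CPM in SP_L, against 12.8, 10.5 and 7.66 CPM in SP_H. The SP_L libraries were close together and SP_H replicate 1 lay among them, while SP_H replicate 3 was the lowest. The log2 fold change was 0.28 ± 0.18, and 0.11 without SP_H replicate 3. Relative to plin3, plin2 had an FPKM ratio of 2.37, 1.92 and 1.99 in SP_L, against 1.30, 1.14 and 1.65 in SP_H. This ratio does not depend on how libraries are scaled. Its groups did not overlap, but plin2 already stood apart on its own, so this is no separate result.

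The gene cidec encodes a droplet protein that in mammals passes lipid between touching droplets and so makes large ones. It was among the rarest, with 13, 9 and 16 counts in SP_L and 21, 5 and 7 counts in SP_H. In CPM these were 0.926, 0.564 and 1.05 in SP_L, against 1.26, 0.294 and 0.433 in SP_H. The highest and the lowest library were both SP_H, and the log2 fold change of 0.35 ± 0.57 was smaller than its standard error. It was 1.20 without SP_H replicate 1 and -0.0081 without SP_H replicate 2, so single libraries set its sign.

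The final step of triglyceride synthesis is catalysed by enzymes of 2 unrelated families, to which dgat1a and dgat2 belong. Another copy of dgat1, dgat1b, was not among the 7 genes. Over all libraries its mean FPKM was 5.28, above the 2.78 of dgat1a and the 3.34 of dgat2. For dgat1a the levels were 12.3, 19.1 and 9.0 CPM in SP_L, against 13.3, 7.23 and 10.9 CPM in SP_H. SP_L replicate 2 was high and the other libraries of both groups were interleaved. The log2 fold change was 0.36 ± 0.29 and was 0.018 without SP_L replicate 2. For dgat2 the levels were 7.27, 9.66 and 9.33 CPM in SP_L, against 11.8, 11.5 and 5.62 CPM in SP_H. The SP_L libraries lay between SP_H replicates 1 and 2, which were high, and SP_H replicate 3, which was the lowest of all. The log2 fold change was -0.14 ± 0.27, with -0.41 without SP_H replicate 3 and 0.034 without SP_H replicate 1. The FPKM ratio of dgat2 to dgat1a was 0.919, 0.785 and 1.61 in SP_L, against 1.38, 2.46 and 0.801 in SP_H, again overlapping. This ratio leaves out dgat1b.

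**Figure D2:**
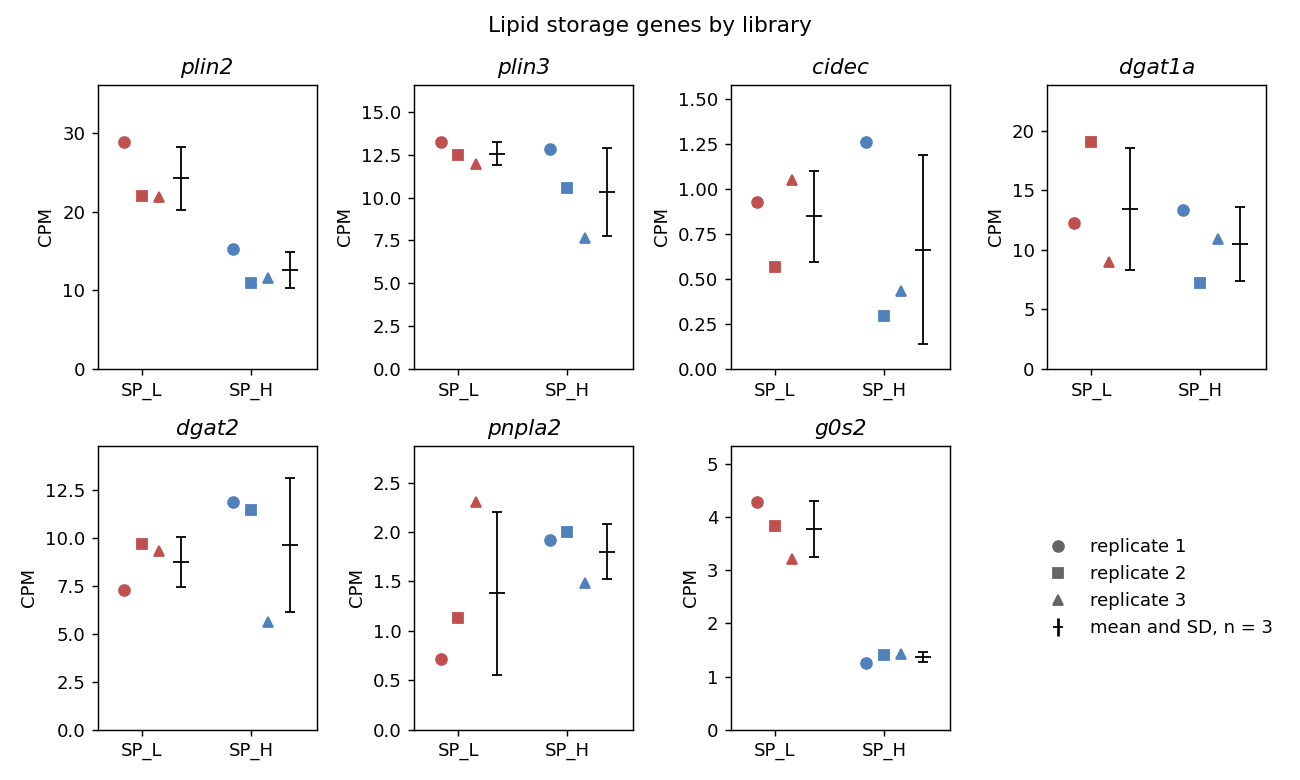
CPM of each of the 7 genes by library, SP_L left and SP_H right in each panel, with symbols for the replicate number and a bar for the mean and SD (n = 3). The axis of each panel starts at 0 and has its own range. In plin2 and g0s2 all SP_L points lie above all SP_H points, and in the other 5 genes they overlap.

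On the lipolysis side, g0s2 showed the largest difference among the 7 genes. It had 60, 61 and 49 counts in SP_L, against 21, 24 and 23 counts in SP_H. In CPM this was 4.28, 3.83 and 3.22 in SP_L, against 1.26, 1.41 and 1.42 in SP_H. The libraries of each group lay close together and the gap between the groups was wider than either. The variance within groups was 0.597 times that of counting alone, so this closeness does not measure the spread between pools. The log2 fold change was 1.46 ± 0.26, a fold of 2.75, and it stayed between 1.36 and 1.56 without any 1 library. On the log2(FPKM + 1) scale, which understates changes of low genes, it was 0.86.

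The gene of the lipase that G0S2 inhibits in mammals, pnpla2, had 10, 18 and 35 counts in SP_L, against 32, 34 and 24 counts in SP_H. The corresponding CPM were 0.713, 1.13 and 2.30 in SP_L, against 1.92, 2.0 and 1.48 in SP_H. SP_L replicates 1 and 2 were below all SP_H libraries and SP_L replicate 3 was above them. The log2 fold change was -0.38 ± 0.43, with values between -0.96 (without SP_L replicate 3) and -0.081 (without SP_L replicate 1). Set per length against the lipase, g0s2 had an FPKM ratio of 14.7, 8.29 and 3.42 in SP_L, against 1.61, 1.73 and 2.34 in SP_H. The ratio was above 1 in all 6 libraries. Its groups did not overlap, but g0s2 already stood apart on its own, so this is no separate result. The ratio was highest in SP_L replicate 1, the library with the fewest counts of pnpla2.

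**Figure D3:**
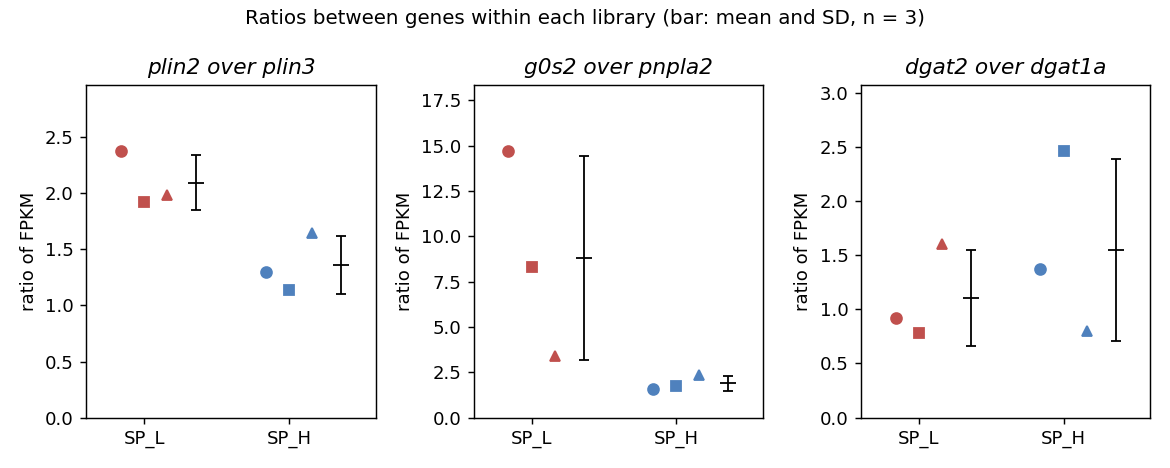
Ratio of FPKM between pairs of genes within each library, SP_L left and SP_H right, with symbols for replicates 1 (circle), 2 (square) and 3 (triangle) and a bar for the mean and SD (n = 3). The ratios of plin2 to plin3 and of g0s2 to pnpla2 lie higher in each SP_L library than in any SP_H library, and those of dgat2 to dgat1a overlap.

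Over the 7 genes, 5 log2 fold changes were positive and 2, those of dgat2 and pnpla2, were negative, with a median of 0.35. That median was 0.12 without SP_H replicate 3, 0.15 without SP_H replicate 2 and 0.57 without SP_H replicate 1, and the sign of cidec, one of the 5, turned without SP_H replicate 2. The median over all 20627 tested genes was 0.0026, and 50.5% of them were positive. With library size alone as the scaling the median of all genes moved to -0.13, and the signs of the 7 genes stayed as they were.

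**Figure D4:**
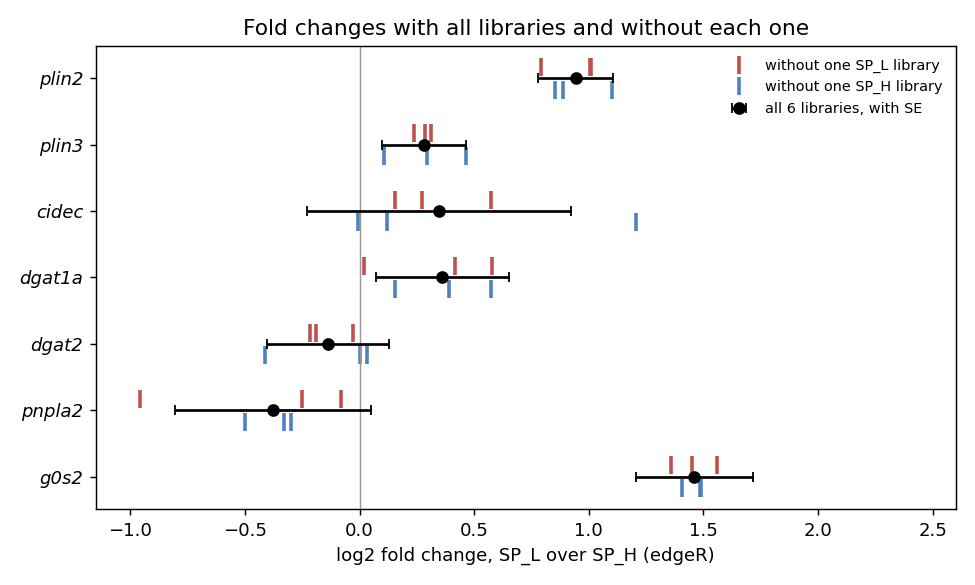
Log2 fold change of SP_L over SP_H by edgeR for each of the 7 genes, with all libraries (black point, bar: SE) and without each SP_L (red ticks) or SP_H (blue ticks) library. The values of g0s2 stay between 1.36 and 1.56 and those of plin2 between 0.79 and 1.10, while those of cidec and dgat2 lie on both sides of 0.

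The genes also differed in how much libraries of the same group varied. The biological coefficient of variation that edgeR fitted stands for the relative spread between libraries beyond counting. It is drawn toward the trend over all genes, so it is not the spread of each gene alone. It was 14.4% for plin2, 16% for plin3 and 19.1% for g0s2. It was 22.9% for dgat2 and 24.9% for dgat1a, and 32.2% for pnpla2 and 39.2% for cidec, the genes with the fewest reads. The observed variance within groups was 0.597 times that of counting alone for g0s2, whose own counts thus showed no spread beyond counting. It was between 3.96 and 22.8 times for the other 6, a ratio that grows with the count of a gene. The members closest to each other in pattern, by the root mean square difference of log2 CPM centred on the mean of the 6 libraries, were plin3 and dgat2 at 0.300 and plin2 and g0s2 at 0.304, and the farthest were pnpla2 and g0s2 at 1.10. The measure keeps the difference between groups. Both plin2 and g0s2 were higher in SP_L, so their closeness is no separate result. Within SP_H, replicate 1 was the highest library for plin2 and the lowest for g0s2. Among 12931 other tested genes with a name, the 5 closest to plin2 by this measure were crata (0.0703), wu:fb80c09 (0.129), tbata (0.142), asb2a.1 (0.145) and ppp1r3g (0.150). All 5 were higher in SP_L without overlap, with log2 fold changes between 0.75 and 0.86. A similar difference between groups is thus part of this closeness, and shared regulation was not tested.

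Marker lists of tissues that store lipid were read in the same libraries, as sums of CPM over the listed genes. The adipocyte list (11 of 23 genes measured, 9 tested) summed to between 287 and 324 CPM in SP_L and between 274 and 337 CPM in SP_H. Of its 9 tested genes 6 had positive fold changes, against 50.5% of all tested genes. Its most abundant genes by FPKM were fabp4a, cfd and lpl, and the leptin gene lepb was at 0 in all libraries. Abundant genes weigh most in such a sum. The largest log2 fold change of the list was that of pck1, at 1.05 ± 0.35 (edgeR adjusted p = 0.249), with SP_L above SP_H without overlap. Of the list, lipea, lipeb, pparg and cebpa are also among the pathway genes below. The skeletal muscle list (16 of 24 measured) was higher in SP_L, with sums between 69255 and 80450 CPM in SP_L and between 56144 and 64583 CPM in SP_H. All 16 genes were positive, against 50.5% of all tested genes. EdgeR called 1 of the 16, against 0.0679% of all tested genes. DESeq2 called ckma, casq1b, actn3b, myoz1b, neb, mylpfb and myoz1a, with adjusted p-values between 8.65e-10 and 0.0439, and none of the rest. Of all genes it tested, DESeq2 called 2.22%. The leading genes of the list by FPKM were the fast myosin light chains mylpfb, mylz3 and mylpfa. It thus moved in the same direction as plin2 and g0s2, and its part in their difference was not tested. Most tested genes of the hepatocyte and enterocyte lists below were positive too.

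The hepatocyte list (18 of 31 measured) summed to between 4496 and 5029 CPM in SP_L and between 2868 and 5097 CPM in SP_H, and its most abundant genes by FPKM were apoa1b, tfa and rbp4. The enterocyte list (12 of 28 measured), led by fabp2, dab2 and slc15a1a in FPKM, summed to between 94.8 and 117 CPM in SP_L and between 65.9 and 105 CPM in SP_H. Fold changes were positive for 14 of 18 tested hepatocyte genes and 7 of 11 tested enterocyte genes, against 50.5% of all tested genes. The largest difference of the hepatocyte list was negative, that of vtnb, with a log2 fold change of -0.87 ± 0.15 and no overlap. Its adjusted p was 0.0760 by edgeR and 0.000499 by DESeq2. The sums of all marker lists, those of adipocytes and skeletal muscle included, were lowest in SP_H replicate 3, as were plin3 and dgat2. The part of RNA from any of these tissues in those 2 genes was not tested. Without SP_H replicate 3 the log2 fold changes of plin2 and g0s2 were 0.89 and 1.49. The part of RNA from these tissues in these values was not tested either.

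**Figure D5:**
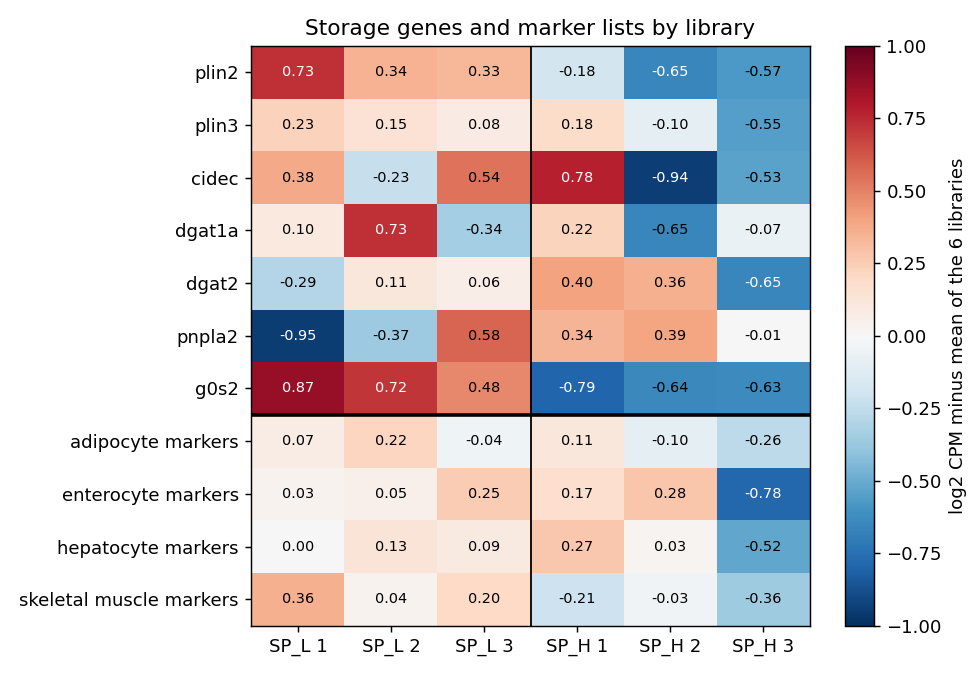
Log2 CPM minus the mean of the 6 libraries, for the 7 genes (top) and as the mean over the tested genes of 4 marker lists (bottom), with SP_L libraries left and SP_H libraries right. SP_H 3 is lowest for plin3 and dgat2 and for all 4 marker lists, and plin2, g0s2 and the skeletal muscle list are higher in each SP_L library than in any SP_H library.

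Further genes of the same pathway, from a list of 93 symbols, gave 51 rows in the table and 50 tested genes. EdgeR called 0 of the 50 and DESeq2 called 1, against 0.0679% and 2.22% of the genes each tool tested. By edgeR 6 had an unadjusted p under 0.05, all of them higher in SP_L. This is 12.0% of the list, against 12.7% of all tested genes in either direction and 6.9% higher in SP_L. Groups did not overlap in 13 of the 50 (26.0%, against 19.1% of all tested genes). Of the log2 fold changes 38 were positive and 12 negative (76% positive, against 50.5% of all tested genes). Their median was 0.12 and their range was from -0.38 to 0.50, all below the values of plin2 and g0s2. The lists were chosen with earlier results known, so nothing is read from these counts or from those of each list below.

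Of 11 other genes of triglyceride synthesis, 0 were called by either tool and 1 had an unadjusted p under 0.05 (9.09%, against 12.7% of all tested genes). The fold changes of 9 were positive (81.8%, against 50.5%), with a median over the list of 0.086. The 3 with the lowest p were mogat3a, a monoacylglycerol acyltransferase, at 0.27 ± 0.11, agpat2, which makes phosphatidic acid, at 0.24 ± 0.11, and the phosphatidate phosphatase gene lpin1, at 0.27 ± 0.21. The other copy of dgat1, dgat1b, had a log2 fold change of -0.066 ± 0.13. Among 6 other lipolysis genes 3 were positive and 3 negative, 0 were called by either tool and 0 had an unadjusted p under 0.05. The hormone-sensitive lipase genes lipea and lipeb had log2 fold changes of 0.16 ± 0.13 and -0.087 ± 0.087, and the triglyceride hydrolase gene ddhd2 one of -0.088 ± 0.088. Groups did not overlap in 1 of the 6, ddhd2 (16.7%, against 19.1% of all tested genes). Its SP_L libraries lay below its SP_H libraries by a narrow margin, with 23.5 CPM in SP_L replicate 3 against 23.8 CPM in SP_H replicate 2.

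Of 16 other genes of droplet coat, budding and fusion, 0 were called by either tool and 1 had an unadjusted p under 0.05 (6.25%, against 12.7% of all tested genes). The fold changes of 13 were positive (81.25%, against 50.5%), with a median over the list of 0.12. The lowest p-values belonged to aup1, a droplet and endoplasmic reticulum protein, at 0.23 ± 0.09, to the droplet GTPase gene rab18a, at 0.20 ± 0.10, and to mospd2, whose product tethers organelles, at 0.25 ± 0.14. Over the list, all SP_L libraries lay above all SP_H libraries in 4 of the 16 genes (25%, against 9.64% of all tested genes). These 3, named for their low p, were among them, by narrow margins. For rab18a the nearest were 35.5 CPM in SP_L replicate 3 and 35.3 CPM in SP_H replicate 3. For aup1 they were 46.8 CPM in SP_L replicate 3 and 46.3 CPM in SP_H replicate 2. For mospd2 they were 11.8 CPM in SP_L replicate 1 and 11.5 CPM in SP_H replicate 1.

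Among 17 transcription factors and coactivators of fat storage 13 were positive (76.5%, against 50.5% of all tested genes), with a median of 0.18. EdgeR called 0. An unadjusted p under 0.05 was found for 4, all higher in SP_L. This is 23.5% of the list, against 12.7% of all tested genes in either direction and 6.9% higher in SP_L. The one DESeq2 call was cebpd, a factor that acts early in fat cell formation in mammals. It had 97.7, 96.8 and 93.6 CPM in SP_L, against 84.6, 56.8 and 61.7 CPM in SP_H. The log2 fold change was 0.50 ± 0.14 (adjusted p = 0.171 by edgeR and 0.0344 by DESeq2). The DESeq2 call was kept without SP_H replicate 1 (adjusted p = 1.11e-06) and lost without any other library, with adjusted p-values between 0.151 and 0.358. The coactivator gene ppargc1a, known for driving mitochondrial oxidation, and the glucocorticoid-responsive factor gene klf15 had log2 fold changes of 0.49 ± 0.15 and 0.45 ± 0.15 (edgeR adjusted p = 0.206 and 0.234). The fat cell regulator gene pparg had one of 0.39 ± 0.25, with adjusted p = 0.558 by edgeR. In the other direction, the lowest value of the list was that of ebf2, at -0.38 ± 0.18 (edgeR adjusted p = 0.425). Its SP_L libraries lay below its SP_H libraries without overlap. Over the list, groups did not overlap in 6 of the 17 (35.3%, against 19.1% of all tested genes), 5 with SP_L above and 1 with SP_L below.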

How the data were processed

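Whole-body RNA of 6 pools of larvae was sequenced; per the labels' protocols, RNA was extracted with a mirVana kit and made into stranded TruSeq mRNA libraries for paired-end Illumina sequencing. The submitters' processing notes name HTSeq, DESeq, HISAT2, Bowtie2, Cufflinks, StringTie, SAMtools and Trimmomatic. Roles, versions and the strand setting of the counting were not given in the sources used here. Those notes name a mouse genome build although 27161 of 27166 gene symbols match the largemouth bass RefSeq table (ASM1485139v1), so genome positions are left out. The authors deposited whole-number counts per gene, without normalization. The deposited FPKM equal those counts per gene length and library total: the implied length of 24734 genes agreed between libraries within a relative tolerance of 1e-04.

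Counts were filtered by filterByExpr (minimum count 10, minimum total 15), scaled by TMM and fitted over all genes with edgeR 4.0.16 in R 4.3.3 (quasi-likelihood test, no replicate block, Benjamini-Hochberg, threshold 0.05). Standard errors are the log2 fold change over the root of F. Alternatives used DESeq2 1.42.0 and limma 3.58.1, and the fits were tested on simulated data. Log2 CPM used a prior count of 2. Counts of 2 replicates of a group had 11.1 to 14.8 times the variance of sampling alone, so none was a repeat reading of the same library. The p-values measure the spread between libraries. These values do not separate the spread of pools from that of library preparation. The members and lists were chosen with earlier results of these data known. Named genes are all members, the 3 genes with the lowest p in each pathway list, the 5 nearest to plin2 and the 3 most abundant markers per list. The genes dgat1b, pparg, ebf2, lepb, pck1 and vtnb were added after their values were seen, as were the other muscle genes called by DESeq2.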

Additional observations from a re-analysis of the deposited data

How the results depend on the processing

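The number of genes called over the whole table, 14 by edgeR, was 449 with DESeq2, 57 without a filter, 5 with library size alone and 2 with the replicate block. It was 0 by limma on log2(FPKM + 1) and on log2(FPKM + 0.1), with 3639 and 3614 genes at an unadjusted p under 0.05. Leaving out SP_H replicate 1 gave 22 genes, leaving out SP_L replicate 2 gave 6, SP_L replicate 3 gave 2 and SP_H replicate 2 gave 1. Leaving out SP_L replicate 1 or SP_H replicate 3 gave 0 (2179 and 2228 at an unadjusted p under 0.05). The causes were not tested. Of the 7 storage genes DESeq2 called 2, and edgeR without a filter called 1, plin2 (adjusted p = 0.0495). Of the 50 other pathway genes DESeq2 called 1. RLE scaling, library size alone, limma-voom, the replicate block, the FPKM fits and the edgeR fits without 1 library called 0 in both lists. The median log2 fold change of the storage genes was between 0.12 and 0.57 without 1 library. That of dgat2 was between -0.41 and 0.034 and turned positive without SP_H replicate 1 (0.034) or SP_H replicate 2 (0.0039). That of cidec was between -0.0081 and 1.20 and turned negative without SP_H replicate 2. The other 5 genes kept their sign under all 14 alternatives. Deviations of same-numbered libraries had correlations between -0.10 and -0.068, and those of differently numbered ones between 0.016 and 0.070. This gave no sign of pairing by replicate number, but a shared tank or day was not tested. With the replicate block plin2 and g0s2 had log2 fold changes of 0.95 and 1.45. DESeq2 without each library in turn was added after seeing the data. It called plin2 each time, and g0s2 each time except without SP_L replicate 1, where DESeq2 gave it no adjusted p. The genes cidec and pnpla2 had only 5 to 35 counts per library, and g0s2 had 21 to 61. The part of depth in the spread of these genes was not tested.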
